A study of Mus musculus with 12 samples.

Results

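Interferon-β, encoded by Ifnb1, and 9 genes whose products lead to its induction were followed in mouse macrophages. The 10 genes were chosen by function, with earlier results of these data known. They were found by symbol among the 41388 Ensembl genes of each deposited table, and all 10 had a row. They comprise the cytokine, 3 nucleic acid sensors (Tlr3, Ifih1 and Dhx58), 4 adaptors (Ticam1, Ticam2, Mavs and Traf3) and 2 kinases (Tbk1 and Ikbke).

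Peritoneal macrophages elicited with thioglycolate were collected 4 days later, plated overnight and exposed for 8 h either to BSA-PBS vehicle or to 250 uM palmitate together with 100 ng/ml LPS, which is called stimulation here. The treatment tag of the stimulated samples names palmitate alone, whereas the design text gives palmitate with LPS, which is followed here. The cells came from LysM-Cre mice, the controls, or from LysM-PPARg mice, which the labels call knockouts of PPARg. LysM-Cre drives recombination from the lysozyme M locus, which is active in macrophages and also in neutrophils. Both line names include this driver, and each of the 4 groups had 3 libraries, called control or labelled knockout, vehicle or stimulated, with a replicate number. The labels do not say whether the 3 libraries of a group came from separate mice, so p-values measure only the spread between these libraries, which may be technical.

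The libraries held 17960457 to 22696385 counts. Pparg, the targeted gene, went against its label in vehicle. Its level is the read count scaled for depth and composition (TMM-normalised CPM). It was 61.6 ± 0.687 CPM in control vehicle libraries and 99.4 ± 10.6 CPM in those labelled knockout (SD, n = 3). With stimulation it was 3.55 ± 0.647 CPM in controls and 4.45 ± 0.765 CPM in libraries labelled knockout, which did not pass (edgeR adjusted p = 0.177). Counts over a whole gene do not test a partial deletion. Vehicle labelled knockout replicate 1 stood apart on the second principal component, at 31.8 against -6.9 and -10 for the other libraries of its group. The 8 macrophage markers summed to between 6109 and 8843 CPM in every library, whereas T and NK cell markers did not exceed 0.577 CPM and markers of plasmacytoid dendritic cells, a potent source of type I interferon, stayed between 6.05 and 10.1 CPM. Siglech, a defining plasmacytoid marker, had 0 counts in the vehicle libraries labelled knockout and in the stimulated controls, and Klk1 had 0 in the other 2 groups and in the stimulated controls.

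In macrophages, LPS engages TLR4 at the cell surface and, after uptake, in endosomes, where the adaptors TRAM (Ticam2) and TRIF (Ticam1) recruit TRAF3 and the kinases TBK1 and IKKε (Ikbke). These kinases phosphorylate IRF3, which binds the Ifnb1 promoter together with NF-kB and AP-1 factors. TLR3 senses double-stranded RNA in endosomes and signals through TRIF, while MDA5 (Ifih1) senses long double-stranded RNA in the cytosol and signals through MAVS, with LGP2 (Dhx58) as a regulator of that pathway. Secreted interferon-β acts back on its receptor and raises several of the same sensors.

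The promoters of Ifnb1, of the sensors Tlr3 and Ifih1 and of the kinase gene Ikbke are given. They were chosen because interferon-β is the product of the pathway and the other 3 are the members whose response to stimulation differed between genotypes. RefSeq promoter windows of 8 of the 10 members were searched for motifs, while those of Dhx58 and Ticam2 were not searched. Each is the 250 bases before the RefSeq start (GRCm38.p6), read 5′ to 3′ on the coding strand, with capitals marking matches to an NF-kB motif (GGG and TTCC with any 3 bases between them) or to an IRF core motif (AANNGAAA) on either strand.
Ifnb1: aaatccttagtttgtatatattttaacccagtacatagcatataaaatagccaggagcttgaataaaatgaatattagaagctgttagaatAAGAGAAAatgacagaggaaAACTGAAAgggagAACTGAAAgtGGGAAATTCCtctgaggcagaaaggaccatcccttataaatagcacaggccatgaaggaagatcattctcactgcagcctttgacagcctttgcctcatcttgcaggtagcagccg
Tlr3: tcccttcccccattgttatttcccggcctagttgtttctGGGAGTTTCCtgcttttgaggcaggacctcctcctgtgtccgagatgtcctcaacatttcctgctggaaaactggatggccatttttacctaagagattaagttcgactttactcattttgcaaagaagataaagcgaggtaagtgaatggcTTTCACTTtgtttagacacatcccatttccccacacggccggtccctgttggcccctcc
Ifih1: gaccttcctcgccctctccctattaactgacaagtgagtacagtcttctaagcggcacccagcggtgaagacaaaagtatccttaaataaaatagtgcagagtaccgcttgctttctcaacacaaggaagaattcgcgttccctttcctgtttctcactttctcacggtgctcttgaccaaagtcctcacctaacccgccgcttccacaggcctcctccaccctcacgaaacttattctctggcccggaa
Ikbke: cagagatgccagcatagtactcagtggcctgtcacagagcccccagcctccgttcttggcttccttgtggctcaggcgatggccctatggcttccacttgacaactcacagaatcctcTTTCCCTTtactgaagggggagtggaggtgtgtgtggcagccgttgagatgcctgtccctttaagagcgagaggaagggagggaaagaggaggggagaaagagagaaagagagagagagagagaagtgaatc
These windows are chr4:88522795-88523044, chr8:45410381-45410630, chr2:62646256-62646505 and chr1:131279564-131279813, all on the minus strand.

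In the Ifnb1 window, 3 IRF core matches lay 159 to 152, 139 to 132 and 126 to 119 bases before the start, followed by an NF-kB match 116 to 107 bases before it. The Tlr3 window held an NF-kB match 211 to 202 bases and an IRF core match, on the reverse strand, 59 to 52 bases before the start. Ikbke had an IRF core match on the reverse strand at 132 to 125 bases, and Traf3 an NF-kB match in the last 10 bases. No match to either motif was in the windows of Ifih1, Ticam1, Mavs and Tbk1, and none of the 8 windows held the longer interferon-stimulated response element, GAAA repeated with any 2 bases between, which includes the IRF core. Among 32851 RefSeq promoter windows of the same length, 4.65% held the NF-kB letters, 21.3% the IRF core and 2.98% the longer element. Each share counts either strand, and a match describes letters only.

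**Figure D1:**
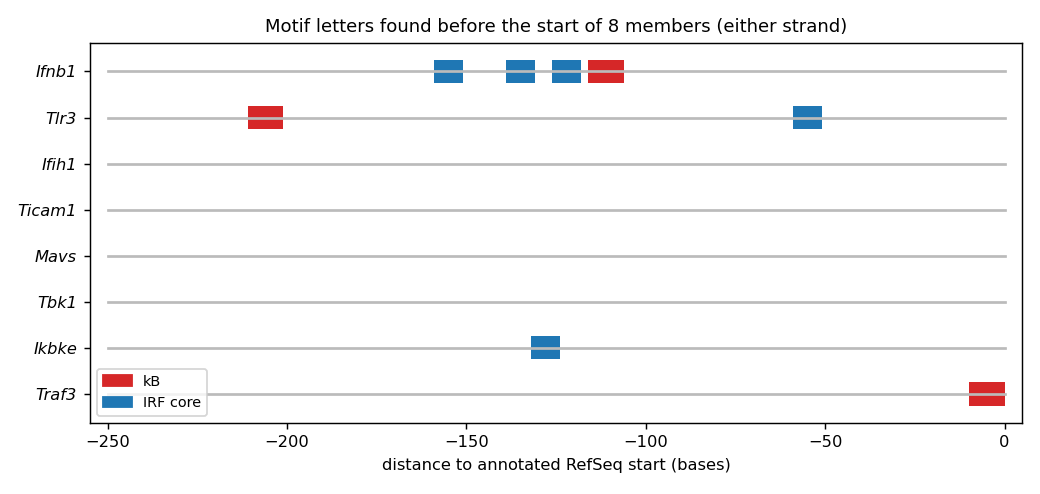
Matches to the NF-kB (red) and IRF core (blue) motifs, on either strand, in the 250 bases before the RefSeq start of 8 members, with distance to the start in bases on the x axis. Ifnb1 has 3 IRF core matches and 1 NF-kB match close together, while 4 members have none.

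Ifnb1 RNA was at the detection limit without stimulation and low after it. Ifnb1 (ENSMUSG00000048806, GRCm38 chromosome 4, 88522025 to 88522774, minus strand, a single exon of 750 bases) had 0, 1 and 0 counts in the control vehicle libraries and 0 in each vehicle library labelled knockout. The 0 counts of the latter group allow up to 0.0489 CPM, at 3 counts over the group and for counting error only. After stimulation the controls had 7, 8 and 9 counts and the libraries labelled knockout 23, 28 and 40. Every stimulated library was above every vehicle library, and the stimulated groups did not overlap.

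Per unit of library total, stimulated controls had 24.3 times the Ifnb1 counts of control vehicle libraries (24 counts against 1), with an exact 95% counting interval of 3.97 to 1000. The stimulated libraries labelled knockout had at least 29.4-fold more than their vehicle group, computed against a floor of 3 counts over the group. Between the stimulated groups the ratio of 91 to 24 counts was 3.74 per library total, with an exact 95% counting interval of 2.36 to 6.13. It lay between 3.2 and 4.09 when any 1 of the 6 libraries was left out. The normalised levels were 1.66 ± 0.394 CPM against 0.422 ± 0.0496 CPM (SD, n = 3), a log2 difference of 1.96 ± 0.33 SE (edgeR quasi-likelihood test, Benjamini-Hochberg adjusted p = 0.00121, or 9.15e-06 to 0.00983 over the alternatives, of which the lowest had no filter on counts). An exact two-sided permutation test of the 6 values gave p = 0.1, the smallest that 3 against 3 allows. Ifnb1 entered the fit only because of its counts in the stimulated libraries labelled knockout. Its edgeR p-values with the count filter are therefore description only, and it is left out of the counts of members that follow. Its interaction of genotype and treatment did not pass (edgeR adjusted p = 0.245), and no fitted fold change against the vehicle groups is given because they were at or near 0. In bulk RNA, fewer cells of a type and less RNA per cell cannot be told apart, here and for every member.

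Other type I and III interferon genes had few or no counts. Of 18 such genes (the Ifna genes, Ifnab, Ifnk, Ifne, Ifnl2 and Ifnl3), 14 had 0 counts in all 12 libraries and none reached the count filter. Ifna4 and Ifna14 each had 2 counts, within 1 stimulated library labelled knockout, and Ifna2 had 1 count in a stimulated control. The Ifna genes are near-identical copies, so counting could have split or dropped their reads. Ifnk, a keratinocyte-associated interferon gene, had 4, 4, 10 and 5 counts in the control vehicle, labelled knockout vehicle, stimulated control and stimulated labelled knockout groups.

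**Figure D2:**
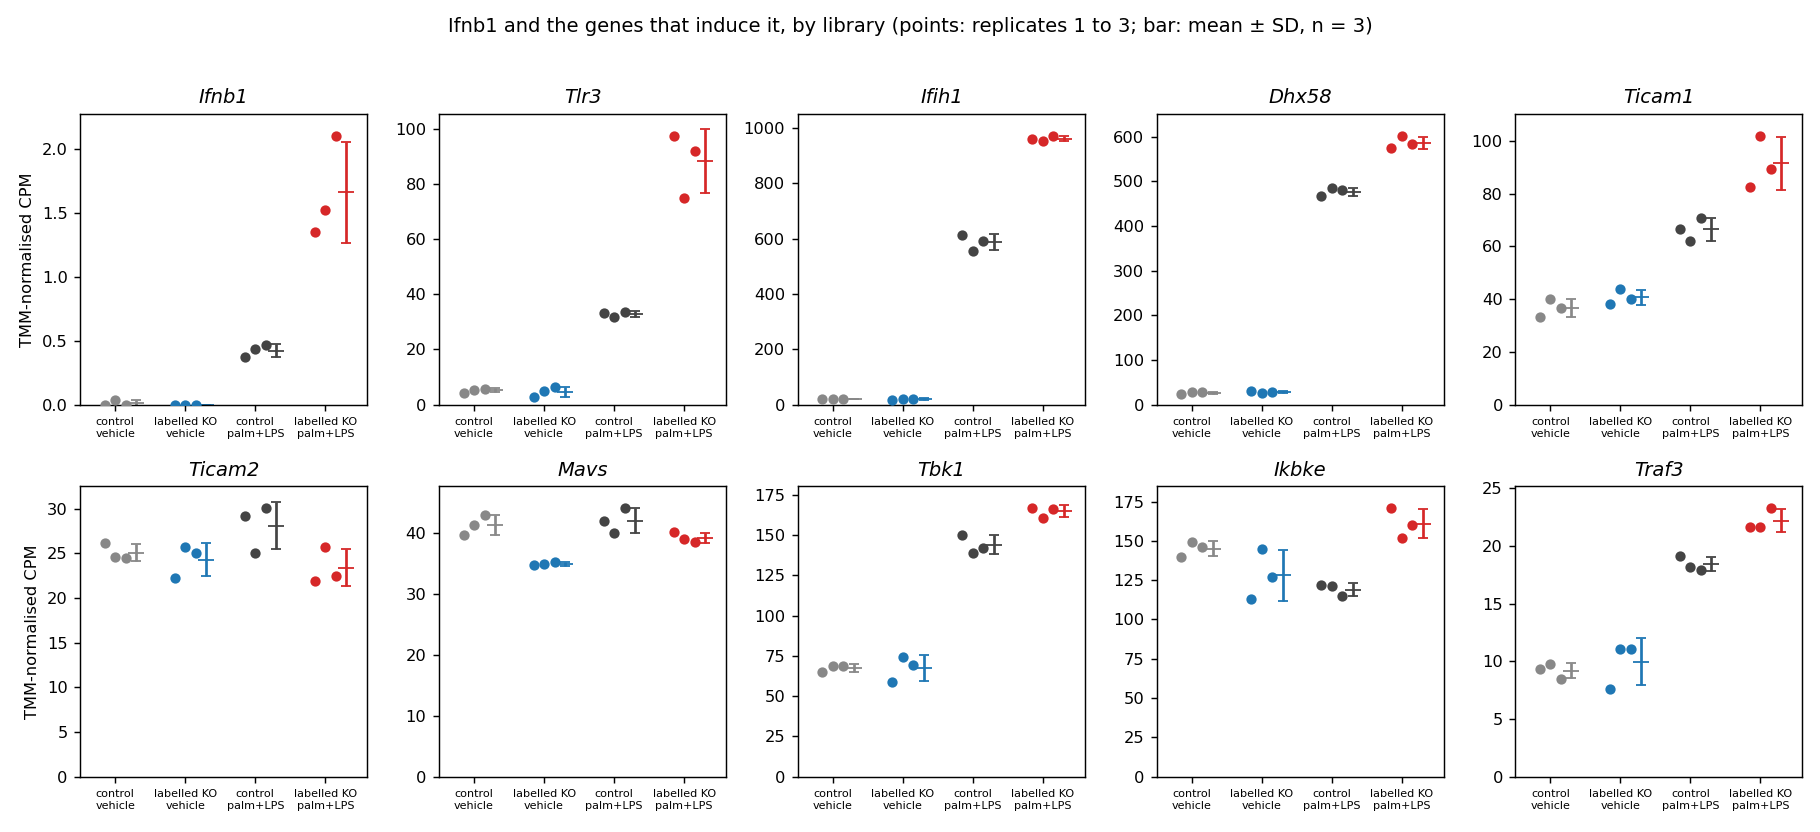
TMM-normalised CPM of the 10 genes in each of the 12 libraries (points), with the mean ± SD of each group of 3 (bars); each panel has its own linear axis from 0. The stimulated libraries labelled knockout overlap other groups for Ticam2 and Mavs and lie above the other libraries in the remaining panels. The share of all genes with that pattern was not computed.

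Among the other 9 members, stimulation of control cells raised 6 and lowered 1, and 2 did not pass the threshold of adjusted p under 0.05. Over all 12914 genes tested, 32.0% were higher and 34.7% lower in this comparison, so most genes moved with treatment. In the libraries labelled knockout 7 of 9 were higher with stimulation and none lower, against 33.7% higher and 35.6% lower over all genes. The median log2 change of the 9 was 1.00 in controls and 1.17 in the libraries labelled knockout, beside -0.05 and -0.06 over all genes. Scaling to library totals alone moved the all-gene medians to -0.38 and -0.42, and only 29.2% and 28.9% of called genes were then higher, against 48% and 48.6% with TMM. Under that scaling 6 members were higher and 2 lower in each genotype, the lower ones being Mavs and Ikbke in controls and Mavs and Ticam2 in the libraries labelled knockout.

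Between genotypes without stimulation, 0 of the 9 members passed the edgeR threshold, beside 2.11% of all genes higher and 1.69% lower. At an unadjusted p under 0.05 there was 1, Mavs, which DESeq2 also called as lower (adjusted p = 0.0477). The median log2 difference of the 9 was 0.00. After stimulation 5 of 9 were higher in the libraries labelled knockout and none lower, against 10% higher and 6.10% lower over all genes, with a median of 0.30 against -0.01. Higher genes made up 62.1% of all those called, or 34.8% with scaling to library totals, but the same 5 members were called as higher either way.

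That count changed when vehicle labelled knockout replicate 1, which is in neither stimulated group, was left out of the fit. Without it 8 of 9 members were called, 7 higher and 1 lower, while 17.1% of all genes were higher and 13.9% lower. The added members were Tbk1 (adjusted p = 0.00912), Traf3 (adjusted p = 0.0176) and Ticam2 (lower, adjusted p = 0.0141). Fitting only the stimulated groups gave the same 8 members, while 17.9% of all genes were higher and 14.5% lower.

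**Figure D3:**
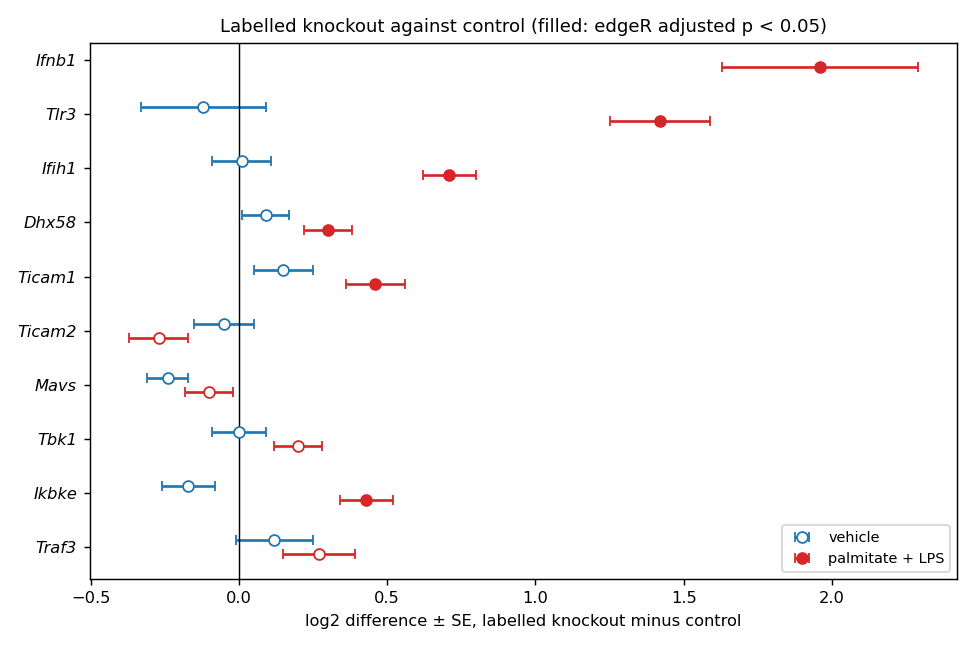
Log2 difference ± SE between libraries labelled knockout and controls for each gene, without stimulation (blue) and with palmitate plus LPS (red); filled points passed adjusted p under 0.05 in edgeR. Ifnb1 is shown only with stimulation, and of the other 9 genes 5 were called there against 0 in vehicle.

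The sensor Tlr3 had the largest genotype difference of the 9 after stimulation. Tlr3 (ENSMUSG00000031639, chromosome 8, 45395665 to 45410608, minus strand) had 33.3, 31.7 and 33.6 CPM in stimulated controls and 97.5, 75.1 and 92 CPM in stimulated libraries labelled knockout, with no overlap. In vehicle it had 4.33, 5.44 and 5.71 CPM in controls and 2.73, 5.06 and 6.19 CPM in libraries labelled knockout. The vehicle ranges overlapped, with replicate 1 labelled knockout the lowest of all 6.

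Stimulation raised Tlr3 6.4-fold in controls (log2 2.68 ± 0.19 SE) and 18.6-fold in the libraries labelled knockout (4.22 ± 0.20). The genotype difference was 1.42 ± 0.17 with stimulation (edgeR adjusted p = 3.41e-05) and -0.12 ± 0.21 without (adjusted p = 0.811). The interaction, which is the response in libraries labelled knockout minus that in controls, was 1.54 ± 0.27 (edgeR adjusted p = 0.00346). Without vehicle replicate 1 labelled knockout the vehicle difference of Tlr3 was 0.13 and still not called.

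Ifih1, encoding the RNA sensor MDA5, was the most strongly induced of the 9. Ifih1 (ENSMUSG00000026896, chromosome 2, 62595798 to 62646255, minus strand) rose from 20, 19.4 and 18.7 CPM in control vehicle libraries to 612, 556 and 593 CPM with stimulation. In the libraries labelled knockout it rose from 15.7, 21.7 and 21.1 CPM to 960, 954 and 972 CPM. The stimulated groups were far apart, whereas the vehicle groups overlapped. The fold increase was 30.2 in controls and 49.2 in the libraries labelled knockout, with an interaction of 0.70 ± 0.14 on the log2 scale (edgeR adjusted p = 0.00848). The genotypes differed by 0.71 ± 0.09 on the log2 scale when stimulated (edgeR adjusted p = 0.00011) and by 0.01 ± 0.10 in vehicle (adjusted p = 0.968).

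Dhx58, encoding the MDA5 regulator LGP2, was induced 18.2-fold in controls and 21-fold in the libraries labelled knockout. Dhx58 (ENSMUSG00000017830, chromosome 11, 100694884 to 100704271, minus strand) had 23.5, 27.4 and 28 CPM in control vehicle libraries and 467, 485 and 480 CPM after stimulation. The libraries labelled knockout had 29.2, 26.3 and 28.5 CPM in vehicle and 574, 602 and 583 CPM after stimulation, where the groups did not overlap. Its stimulated difference of 0.30 ± 0.08 on the log2 scale (edgeR adjusted p = 0.0157) lost its call without stimulated control replicate 1 or 3 or stimulated labelled knockout replicate 2 or 3 (adjusted p from 0.0525 to 0.0631). Its interaction of 0.21 ± 0.11 did not pass (edgeR adjusted p = 0.253). The antisense gene Dhx58os, which shares 141 exon bases, had at most 9 counts in any library.

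Because Dhx58 and Ifih1 belong to the same helicase family, their count ratio within a library was also compared, which no scaling can change; these ratios are given as values, with no test. It was 1.36 ± 0.166 in control vehicle and 0.815 ± 0.0549 in stimulated control libraries, and 1.47 ± 0.343 and 0.61 ± 0.0189 in the corresponding libraries labelled knockout (SD, n = 3). The stimulated libraries labelled knockout, at 0.598, 0.631 and 0.599, were all below the stimulated controls, at 0.764, 0.873 and 0.809.

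Of the adaptors, Ticam1 and Traf3 rose with stimulation, and Ticam1 also differed between genotypes. Ticam1 (ENSMUSG00000047123, chromosome 17, 56269319 to 56276786, minus strand), encoding TRIF, had 33.2, 40.1 and 36.8 CPM in control vehicle and 66.6, 62.1 and 70.8 CPM in stimulated control libraries. The libraries labelled knockout had 38.2, 43.9 and 40 CPM in vehicle, overlapping the controls, and 82.6, 102 and 89.5 CPM with stimulation, all above them. The changes with stimulation were 0.86 ± 0.10 and 1.17 ± 0.10 on the log2 scale, and the stimulated genotype difference was 0.46 ± 0.10 (edgeR adjusted p = 0.00492). The interaction of 0.31 ± 0.14 did not pass (edgeR adjusted p = 0.174).

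Ticam2 (ENSMUSG00000056130, chromosome 18, 46559155 to 46574533, minus strand), encoding TRAM, the bridge between TLR4 and TRIF, did not follow Ticam1. Its levels were 26.2, 24.6 and 24.5 CPM in control vehicle and 29.2, 25.1 and 30.1 CPM in stimulated control libraries. They were 22.2, 25.7 and 25 CPM in vehicle and 21.9, 25.7 and 22.5 CPM with stimulation in the libraries labelled knockout, and all groups overlapped. The change with stimulation was 0.16 ± 0.10 on the log2 scale in controls and -0.06 ± 0.10 in the libraries labelled knockout (edgeR adjusted p = 0.155 and 0.628), or -0.17 and -0.43 with scaling to library totals, the latter called (adjusted p = 0.00524). The stimulated genotype difference was -0.27 ± 0.10 (edgeR adjusted p = 0.0812). Ticam2 shares 838 of its 3928 exon bases with Tmed7 on the same strand, which had 353 to 574 counts per library, so reads there could be assigned to either gene or to neither.

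The count ratio of Ticam2 to Ticam1 was 0.689 ± 0.089 in control vehicle and 0.422 ± 0.017 in stimulated control libraries. In the libraries labelled knockout it was 0.596 ± 0.0241 and 0.256 ± 0.00779. The 3 stimulated ratios labelled knockout, from 0.251 to 0.265, were below the stimulated controls, from 0.404 to 0.438.

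Mavs (ENSMUSG00000037523, chromosome 2, 131234063 to 131248025, plus strand), the mitochondrial adaptor of MDA5, stayed within a narrow range. It had 39.8, 41.4 and 43.1 CPM in control vehicle and 34.8, 34.9 and 35.3 CPM in labelled knockout vehicle libraries, without overlap. With stimulation it had 42.1, 40 and 44.2 CPM in controls and 40.2, 39 and 38.6 CPM in libraries labelled knockout, which overlapped. The vehicle difference was -0.24 ± 0.07 on the log2 scale (edgeR adjusted p = 0.099). Its change with stimulation was 0.02 ± 0.07 in controls and 0.17 ± 0.08 in the libraries labelled knockout (edgeR adjusted p = 0.784 and 0.0622). Scaling to library totals turned these to -0.31 and -0.20, both called, where the all-gene medians stood at -0.38 and -0.42. With RLE, another scaling for composition, the change in the libraries labelled knockout was 0.18 and called as higher (edgeR adjusted p = 0.0453). DESeq2 also gave 0.18 and called it as higher (adjusted p = 0.0405), so the direction called depended on the processing.

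Traf3 (ENSMUSG00000021277, chromosome 12, 111166370 to 111267153, plus strand), encoding a ubiquitin ligase that links TRIF and MAVS to the kinases, had the lowest level per exon length of the 9 after stimulation. It rose from 9.34, 9.76 and 8.48 CPM to 19.1, 18.2 and 17.9 CPM in controls, and from 7.6, 11.1 and 11.1 CPM to 21.6, 21.6 and 23.3 CPM in the libraries labelled knockout. The log2 changes were 1.00 ± 0.13 and 1.15 ± 0.13 (edgeR adjusted p = 3.72e-06 and 6.25e-07). The stimulated libraries labelled knockout were all above the controls, by 0.27 ± 0.12 (edgeR adjusted p = 0.148).

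The 2 kinase genes behaved differently. Tbk1 (ENSMUSG00000020115, chromosome 10, 121546455 to 121586794, minus strand) had 65, 68.9 and 69 CPM in control vehicle and 150, 139 and 142 CPM in stimulated control libraries. In the libraries labelled knockout it had 58.8, 74.4 and 69.3 CPM in vehicle and 167, 161 and 166 CPM with stimulation. Stimulation raised it by 1.09 ± 0.09 and 1.29 ± 0.09 on the log2 scale, and the stimulated genotype difference was 0.20 ± 0.08 (edgeR adjusted p = 0.127).

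Ikbke (ENSMUSG00000042349, chromosome 1, 131254343 to 131279606, minus strand), encoding IKKε, moved in opposite directions in the 2 genotypes. In controls it fell from 140, 149 and 146 CPM to 122, 121 and 115 CPM, a log2 change of -0.28 ± 0.09 (edgeR adjusted p = 0.0116) that was lost without stimulated control replicate 3 (adjusted p = 0.0541). In the libraries labelled knockout it rose from 113, 145 and 127 CPM to 171, 152 and 160 CPM, by 0.33 ± 0.09 (edgeR adjusted p = 0.00419). Neither pair of groups overlapped, but the rise turned to -0.05 (adjusted p = 0.675) with scaling to library totals.

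The interaction of Ikbke was 0.61 ± 0.13 (edgeR adjusted p = 0.0102) and stayed called in each of 17 alternatives, scaling to library totals included. After stimulation Ikbke was higher in the libraries labelled knockout by 0.43 ± 0.09 (edgeR adjusted p = 0.00392), and in vehicle it differed by -0.17 ± 0.09 (adjusted p = 0.354). Its exons share 159 and 65 bases with the opposite-strand genes Gm28914 and Gm28913, which had at most 12 counts in any library.

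The count ratio of Ikbke to Tbk1 fell in both genotypes with stimulation. It was 2.15, 2.16 and 2.12 in control vehicle libraries and 0.812, 0.874 and 0.81 in stimulated controls. In the libraries labelled knockout it was 1.92, 1.96 and 1.83 in vehicle and 1.02, 0.946 and 0.967 with stimulation. The libraries labelled knockout were thus below the controls in vehicle and above them after stimulation, without overlap in either condition.

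**Figure D4:**
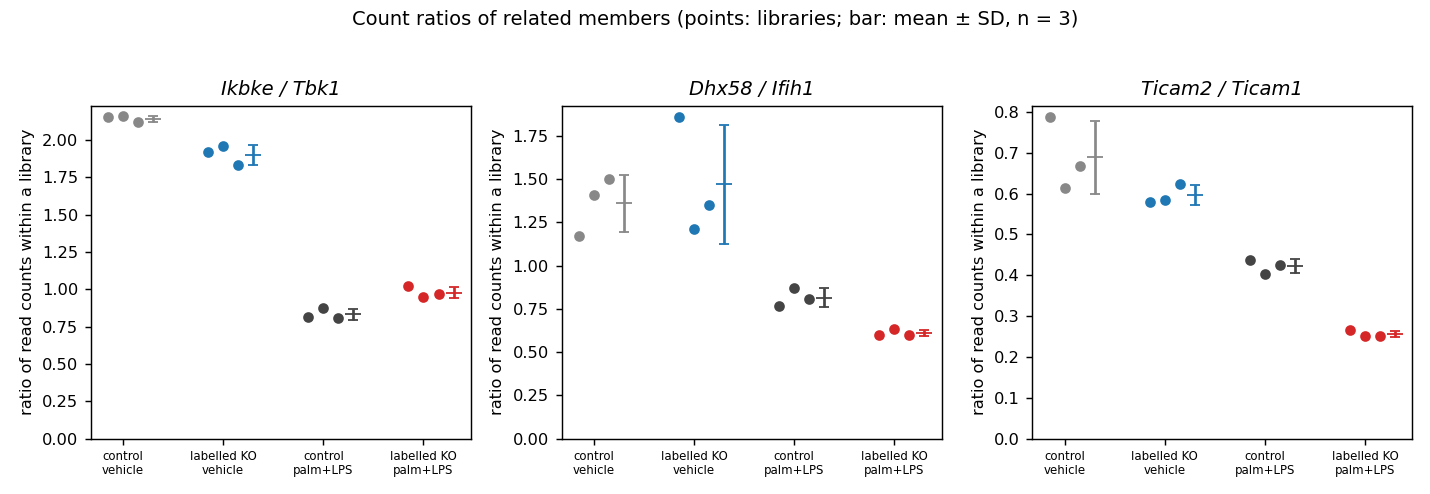
Ratio of read counts within each library for Ikbke over Tbk1, Dhx58 over Ifih1, and Ticam2 over Ticam1 (points: the 3 libraries of a group; bars: mean ± SD, n = 3). All 3 ratios are lower in stimulated than in vehicle libraries, and the ratio of Ikbke to Tbk1 falls from about 2.14 to 0.832 in controls.

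Of the 9 members, 3 had an interaction past the threshold, each with a higher response in the libraries labelled knockout, beside 4.70% of all genes higher and 3.35% lower. These were Tlr3, Ifih1 and Ikbke, and the same 3 were called with scaling to library totals, where only 33% of the called genes were higher against 58.4% with TMM. The 2 treatment responses share no library with each other, but each shares its libraries with the genotype comparisons.

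**Figure D5:**
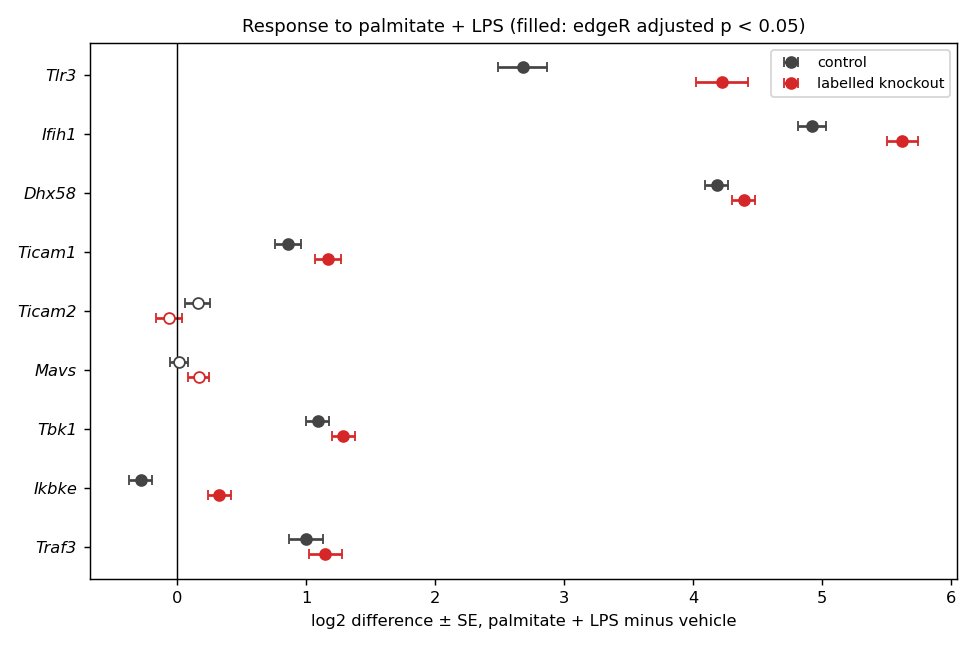
Log2 change ± SE with palmitate plus LPS for 9 members in controls (grey) and in libraries labelled knockout (red); filled points passed adjusted p under 0.05 in edgeR. Ifih1 shows the highest change in both genotypes, at 4.92 and 5.62, and Ikbke lies below 0 in controls and above 0 in the libraries labelled knockout.

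Levels were compared between genes on the deposited RPKM, which is CPM per kilobase of exon. In control vehicle libraries Tbk1 was highest, at 25.6 ± 0.667 RPKM, followed by Ikbke at 18.4 ± 0.63, Mavs at 14.2 ± 0.155 and Ticam1 at 14.1 ± 1.28, and the last 2 overlapped. Dhx58 stood at 9.2 ± 0.655, Ticam2 at 7.34 ± 0.491 and Ifih1 at 2.73 ± 0.181 RPKM. Traf3 (1.44 ± 0.144) and Tlr3 (1.34 ± 0.156) overlapped, above Ifnb1 at 0.0197 ± 0.0342 RPKM. The kinase and adaptor genes thus stood above the sensors Ifih1 and Tlr3 in unstimulated controls, except Traf3, which was below Ifih1 and overlapped Tlr3. The sensor Dhx58 was above the adaptors Ticam2 and Traf3.

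Stimulation reordered the list. In stimulated controls Dhx58 (133 ± 0.964 RPKM) and Ifih1 (65.6 ± 4.82) were first, ahead of Tbk1 (43.2 ± 2.94) and Ticam1 (20.3 ± 1.55). Ikbke (12.1 ± 0.593) overlapped Mavs (11.5 ± 0.702), and Tlr3 (6.82 ± 0.347) overlapped Ticam2 (6.53 ± 0.723). In the stimulated libraries labelled knockout Tlr3 reached 17.3 ± 2.17 RPKM, overlapping Ikbke at 15.4 ± 0.747 and above Mavs at 10.1 ± 0.0704. Ifnb1 was last in every group, at 0.512 ± 0.0507 RPKM in stimulated controls and 1.91 ± 0.475 RPKM in the stimulated libraries labelled knockout. The exon lengths come from the deposited tables and join all annotated exons of a gene, 9018 bases for Ikbke against 3031 for Tbk1, so RPKM may understate a gene whose annotated exons are not all used.

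The genes around these members were described by lists, whose counts are read beside the shares over all genes tested: 10% higher and 6.10% lower between stimulated genotypes, 2.11% and 1.69% between genotypes in vehicle, and 32.0% and 34.7% with stimulation of controls. Of 14 tested receptors and other sensors, 5 were higher and 1 lower in the stimulated libraries labelled knockout, with a median log2 difference of 0.14 against -0.01 over all genes. They included Ddx58, encoding the RNA sensor RIG-I, which stood at 590 ± 9.54 CPM against 372 ± 5.71 in controls, a difference of 0.66 ± 0.09 (edgeR adjusted p = 0.000151). Ddx58 also had an interaction, of 0.60 ± 0.14 (edgeR adjusted p = 0.017). Unc93b1, the chaperone that brings nucleic acid-sensing Toll-like receptors to endosomes, was higher by 0.41 ± 0.07. With stimulation of controls 8 of the 14 rose and 5 fell, the latter near the 34.7% over all genes, among the former Zbp1 (by 6.63 ± 0.12) and Tlr2 (by 4.61 ± 0.10).

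Of 18 other adaptors, kinases and ubiquitin ligases, 5 were higher and none lower in the stimulated libraries labelled knockout, with a median of 0.09. Tank, which scaffolds TBK1 and IKKε, was higher by 0.44 ± 0.07 with stimulation and by 0.50 ± 0.07 in vehicle (edgeR adjusted p = 0.000758 and 0.000877). Trim25, a ubiquitin ligase of the RIG-I pathway, was higher by 0.53 ± 0.10, and Myd88, the adaptor of the other arm of TLR4 signalling, by 0.36 ± 0.07. In controls stimulation raised 11 of the 18 and lowered 5, beside 32.0% and 34.7% of all genes.

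Transcription factors and cofactors of the Ifnb1 promoter had 3 of 12 members higher and none lower in the stimulated libraries labelled knockout, with a median of 0.20. These were Irf5 (0.62 ± 0.07), Irf7 (0.63 ± 0.10, from 2636 ± 237 to 4078 ± 55.9 CPM) and Hmga1 (0.57 ± 0.08), which encodes an architectural protein of that promoter. Irf7 was also higher in vehicle, by 0.42 ± 0.11 (edgeR adjusted p = 0.0487). In controls stimulation raised 7 of 12 and lowered 1, beside 32.0% and 34.7% of all genes, and Irf7 rose by 6.32 ± 0.13 and Irf1 by 4.37 ± 0.10. Of 19 tested genes that restrain induction, 5 were higher and none lower in the stimulated libraries labelled knockout, with a median of 0.27. They included Adar, an RNA-editing enzyme that keeps self RNA from activating MDA5 (0.81 ± 0.12), and Usp18 (0.61 ± 0.09), which was also higher in vehicle (0.52 ± 0.10, edgeR adjusted p = 0.00691). In controls 14 of the 19 rose and 4 fell with stimulation, beside the same shares of all genes.

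Downstream of the cytokine, 4 of 7 genes of receptor signalling were higher and none lower in the stimulated libraries labelled knockout, with a median of 0.49, among them Stat2 (0.73 ± 0.14) and Tyk2 (0.66 ± 0.18). Of 20 interferon-stimulated genes 16 were higher and none lower, with a median of 0.61, and in vehicle 5 of 20 were higher and none lower, with a median of 0.34, beside 2.11% and 1.69% of all genes. With stimulation of controls, 6 of the 7 signalling genes and 20 of the 20 interferon-stimulated genes rose. Of the receptor signalling genes 0 passed the edgeR threshold between genotypes in vehicle, with 1 at an unadjusted p under 0.05.

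The marker sums of fibroblast and mesothelial cells and of neutrophils differed between the genotypes in both conditions. Fibroblast and mesothelial markers summed to 330, 181 and 231 CPM in the stimulated libraries labelled knockout and to 124 to 143 CPM in stimulated controls, with 5 of 8 markers higher and none lower. Neutrophil markers summed to 144 to 174 CPM against 107 to 117 CPM, with 2 of 5 tested markers higher and 1 lower. The median log2 difference of these 5 was -0.29, opposite to the sum, and the defining markers S100a9 and Ly6g were at 0 counts in both groups. In vehicle, without overlap either, the fibroblast and mesothelial sums were 144 to 189 CPM against 111 to 132 CPM and the neutrophil sums 111 to 115 CPM against 77.9 to 81.8 CPM, the libraries labelled knockout being higher. By single markers, 0 of 8 fibroblast and mesothelial genes passed the edgeR threshold in vehicle, with 2 at an unadjusted p under 0.05. Of the 5 tested neutrophil markers 1 was called in vehicle, as higher. The part of these cells in the differences of the members was not tested. Between stimulated groups 0 of 3 plasmacytoid and 0 of 3 conventional dendritic cell, 0 of 4 B cell, 0 of 4 large peritoneal macrophage and 0 of 2 eosinophil and mast cell markers passed the edgeR threshold, with 2 of the B cell and 1 of the large peritoneal macrophage markers at an unadjusted p under 0.05.

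The genes with the pattern most like that of Ifnb1 were sought by Pearson correlation of log2 CPM. Over all 12 libraries and 6923 genes of at least 10 CPM, the closest were Pi4k2a, Xrn2, Dync1i2, Aim2 and Il13ra1, with r from 0.989 to 0.997. Aim2 encodes a cytosolic DNA sensor, and it stood at 47.9 CPM in stimulated controls and 64.8 CPM in the stimulated libraries labelled knockout. For Tlr3 the closest included Dnaja2, Rnf4, Tmem229b and Pphln1, with r from 0.995 to 0.996. Over the 6 stimulated libraries the closest to Ifnb1 included Tgfbr2, Lipg, Pi4k2a and Mcm9, with r from 0.993 to 0.999. These values describe likeness only: the libraries fall into groups by treatment and genotype, which all genes share, and Ifnb1 rests on at most 40 counts.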

How the data were processed

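The labels' protocols name Ambion columns for RNA and the SMARTer v1 kit for the libraries. Tools in the submitters' processing notes are STAR 2.0.4b, featureCounts 1.45, Subread and bcl2fastq 2.0, with build GRCm38. The options, annotation and use of strand were not given in the sources used here. The deposited tables hold raw counts per gene, CPM (counts relative to all counts of that library) and RPKM (CPM per kilobase of exon), per the file headers. Of 41388 gene IDs, 40254 received a symbol.

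Counts were filtered with filterByExpr, leaving 12914 genes with at least 99.92% of each library's counts, and scaled by TMM. A group-means model over the 12 libraries was tested with the quasi-likelihood test of edgeR 4.0.16 and was checked on simulated data. P-values were Benjamini-Hochberg adjusted over all tested genes, with a threshold of 0.05. Levels are TMM-normalised CPM unless RPKM is named. Counting intervals and floors cover counting error only. DESeq2 1.42.0, other scalings, no filter, pairs of groups, a replicate block and leaving out each library were alternatives. From each pathway list, named genes came from the up to 3 with the smallest p per comparison among those called; likeness was ranked by correlation of log2 CPM, with up to 5 genes named each. Some genes these rules select are not reported here. The members and lists were chosen with earlier results of these data known.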

Additional observations from a re-analysis of the deposited data

Results flagged for a closer look

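The response to palmitate plus LPS differed between the genotypes, by the interaction test in edgeR, for 3 members. Tlr3 had an interaction of 1.54 ± 0.27 on the log2 scale, with all 3 stimulated libraries labelled knockout above all 3 stimulated controls. The interaction of Ifih1 was 0.70 ± 0.14, and that of Ikbke was 0.61 ± 0.13. For Ikbke the change was -0.28 in controls and 0.33 in the libraries labelled knockout, so the responses differed in sign with TMM scaling.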

How the results depend on the processing

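Of 818 recomputed log2 values of the members, 784 kept their direction and their side of the threshold, 5 lost a call, 10 gained one and 19 changed sign. Of those that changed sign, 2 also gained a call and 1 lost it. With scaling to library totals the treatment change became -0.17 for Ticam2 and -0.31 for Mavs in controls, and -0.20 for Mavs and -0.05 for Ikbke in the libraries labelled knockout, and the vehicle difference of Ifih1 became -0.03. Without single libraries the vehicle difference ranged from -0.37 to 0.13 for Tlr3, from -0.07 to 0.14 for Ifih1, from -0.09 to 0.01 for Ticam2 and from -0.08 to 0.09 for Tbk1, the interaction of Traf3 from 0.00 to 0.24, and the control response of Mavs from -0.01 to 0.06. The values of Ifih1 that changed sign were -0.01, -0.07 and -0.05; those of Tbk1, close to 0 throughout, were 0.01 with RLE scaling, DESeq2 and without control vehicle replicate 2 or 3, and 0.09. None of these vehicle differences was called. The control response of Mavs was just below 0 (0.00 when rounded) with no filter. DESeq2 called 1 member in vehicle, and it gave no adjusted p for stimulated Ifnb1 (log2 1.98 ± 0.50, unadjusted p = 6.75e-05).

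Members called in the stimulated genotype comparison numbered 5, or 8 with only those groups and 4 to 8 without single libraries; DESeq2 and the other settings moved none of the member counts by over 1.5 times except in vehicle. Over all genes, calls between genotypes in vehicle were 491, or 960 without a filter, 229 with the pair of groups and 261 to 789 without single libraries. With stimulation they were 2081, or 3811 with the pair of groups and 1227 to 4080 without single libraries. Interaction calls were 1039, or 1875 without a filter, 514 with the replicate block and 428 to 1962 without single libraries. The cause of these shifts was not tested. Same-numbered libraries did not deviate together (correlations from -0.68 to 0.318). The labels do not say whether the numbers pair libraries, and correlations within groups of 3 cannot decide it. The replicate block left the members called at 0, 5, 7, 7 and 3. The low counts of Ifnb1 limit its precision to the counting interval given.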

Other observations

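Cd14, the LPS co-receptor that also delivers TLR4 to endosomes, was higher in libraries labelled knockout in vehicle. After stimulation Cd14 was lower in them, whereas the members called there were higher. It stood at 270 ± 17.5 CPM in control vehicle and 470 ± 88.5 CPM in labelled knockout vehicle libraries (edgeR adjusted p = 0.000425), but at 2090 ± 169 and 1493 ± 60.7 CPM after stimulation (adjusted p = 0.00769). Its interaction was -1.28 ± 0.16 on the log2 scale (edgeR adjusted p = 0.000302). Tnfaip3, which encodes the inhibitor A20 and restrains signalling to NF-kB, had an interaction of 0.85 ± 0.18 (adjusted p = 0.00996), from 228 ± 32 CPM in stimulated controls to 342 ± 4.02 CPM in the stimulated libraries labelled knockout.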
